A study of Homo sapiens with 4 samples.

Results

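The genes described here were the Golgi protein gene UNC50 and the genes of the ARF, COPI, COPII, golgin and SNARE machinery around it. They were taken by name from a list of 52 genes. The choice of genes used no measured value, but the list was drawn up with earlier results of these data known. All 52 were found among the 34809 gene names of the array, on 61 of its 42405 probes, and all 52 passed the filter on dim probes, as did 25148 genes in all. A gene with more than 1 probe was read from the one with the higher mean signal over all arrays, knockdown arrays included.

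The samples were Hep3B cells, a human hepatocellular carcinoma line, transfected with pLKO.1 plasmids that express a short hairpin RNA and purified with 1 µg/ml puromycin. Control cells carried the plasmid shR-MOCK, and knockdown cells carried shR-467, shR-554 or shR-749, with 1 array for each of the 4. The last 3 express hairpins placed by the labels at bases 467, 554 and 749 of the UNC50 mRNA, and the paper's methods describe shR-554 and shR-749. Nothing stated how many cultures or clones stood behind an array, and the 3 hairpins were taken as 3 replicates of UNC50 knockdown, so that errors are the SD over hairpins (n = 3) and hold effects of the single hairpins.

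Proteins made in the endoplasmic reticulum (ER) leave it in vesicles coated with COPII, which the small GTPase SAR1 starts to build. Vesicles coated with COPI, built after ARF GTPases have bound GTP, carry proteins back from the Golgi to the ER and between Golgi cisternae. Guanine nucleotide exchange factors such as GBF1 load ARF with GTP, ARFGAPs end the cycle, golgins catch incoming vesicles and SNAREs fuse them with the target membrane. UNC50 is a membrane protein of the Golgi, and its yeast homolog binds the ARF exchange factors. The comparison of knockdown with mock cells addressed what the loss of UNC50 mRNA does to gene expression in liver cancer cells, here for the machinery in which the protein sits.

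The arrays shared 1 slide and 1 scan. Between 67.7% and 73.6% of spots were well above background on an array, and no spot was saturated. Levels were the log2 of the scanner's processed signal minus each array's 75th percentile. In signal units this percentile was 1120 in mock cells and 978, 1390 and 1130 in knockdown cells, in the order of the hairpins' numbers, which holds for all triplets of values below. All 10 hepatoma markers listed, among them AFP, ALB and APOA1, were above background on all 4 arrays, with a summed signal between 466868 and 700089 that was lowest on the mock array. The fibroblast list was above background on all arrays for 1 of 5 genes, with a summed signal between 204 and 379, and COL1A1 was above background on none. Of the leukocyte genes, 4 of 5 were on the array and all 4 were above background, with a summed signal between 3175 and 3945 of which CD68 gave 2960 to 3755, while PTPRC lay between 58.1 and 106. Of 4 endothelial genes, 3 were above background on all arrays and the list summed to between 258 and 357. In bulk RNA, fewer cells of a type and less RNA per cell cannot be told apart.

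UNC50 was read from 1 probe in 1 spot, printed here because 1 of the hairpins is aimed at it. The probe lay at chr2:99227237-99227296 in the array annotation on hg19 and at bases 431 to 490 of the array's UNC50 transcript. The capitals mark the 21 bases that start at the position labelled for shR-467.
UNC50 probe: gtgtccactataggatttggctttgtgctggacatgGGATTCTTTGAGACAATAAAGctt
All 21 bases of the shR-467 position lay inside the probe, if the labels and the array number the transcript alike, whereas the positions of shR-554 and shR-749 lay 64 and 259 bases past its end. The readout was thus made at the labelled target of 1 hairpin and upstream of the other two.

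UNC50 mRNA was lower with every hairpin. The scanner read it at 5010 signal units in mock cells and at 1050, 853 and 947 in knockdown cells. On the scaled log2 scale these levels were 2.16 in mock cells and 0.10, -0.70 and -0.25 in knockdown cells. The mock array lay above all 3 knockdown arrays by more than these differed among themselves, with shR-467 the highest of the 3 and shR-554 the lowest. The log2 differences were -2.06, -2.87 and -2.42, with a mean of -2.45 ± 0.40 (SD, n = 3), or 5.45-fold lower. UNC50 had the smallest p of all genes in limma (rank 1 of 25148), with a 95% interval of -3.21 to -1.68, but its Benjamini-Hochberg adjusted p was 0.612. No gene passed an adjusted p of 0.05 (0.0% of 25148), and 381 genes (1.52%) had an unadjusted p below it. With 1 mock array against 3, an exact permutation test could not give a p below 0.25, and limma assumes that the lone mock sample varies like the hairpins.

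**Figure D1:**
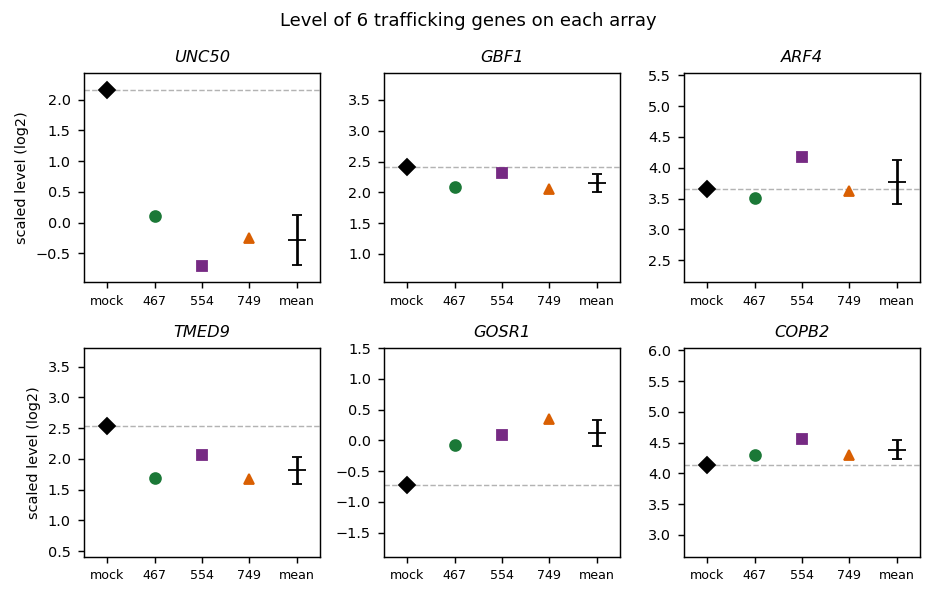
Scaled level (log2 of processed signal minus the array's 75th percentile) of 6 genes on each of the 4 arrays. Diamonds and dashed lines show the mock array, other symbols the 3 hairpins, and the last position gives the hairpins' mean with its SD. Every panel spans the same log2 range. UNC50 and TMED9 lie below the mock level with every hairpin, GOSR1 and COPB2 above it, GBF1 slightly below it, and ARF4 lies on both sides.

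Beside UNC50, the machinery held 2 genes whose mean differed from mock by 1.5-fold or more. GOSR1, a Golgi SNARE, was higher, and TMED9, a p24 cargo receptor, was lower. Thus 1 of 52 members was at least 1.5-fold higher on average, against 2.28% of all genes, and 2 of 52 were at least 1.5-fold lower, against 7.69%. Among the 21497 genes above background on all 4 arrays these shares were 2.34% and 2.93%. With every hairpin at 1.5-fold or more, GOSR1 alone was higher (all genes 0.537%) and UNC50 alone was lower (all genes 1.23%). For genes above background on all arrays the same counts gave 0.568% and 0.474%. UNC50, GOSR1 and TMED9 were the 3 members with an unadjusted limma p under 0.05, against 1.52% of all genes. UNC50 is the target of the hairpins, and without it this count was 2 of 51 members.

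Small differences in 1 direction were common among the members. Counted at any size, 21 of 52 members (40.4%) were higher with all 3 hairpins, against 17.5% of all genes, and 9 of 52 (17.3%) were lower with all 3, against 20.6%. Among genes above background on all arrays these shares were 20.2% and 18.4%. The median of the mean log2 differences was 0.10 over the members, 0.11 without UNC50, -0.03 over all genes and 0.00 over genes above background on all arrays. By hairpin, the members' medians were 0.08, 0.21 and 0.05, where all genes had 0.03, -0.04 and -0.06. Genes above background on all arrays had 0.04, 0.00 and -0.03. The members' upward displacement was thus largest with shR-554. The members' median was 0.12 without shR-467, 0.03 without shR-554 and 0.12 without shR-749. All genes had -0.05, -0.01 and -0.01 with the same hairpins left out. The 3 hairpins share 1 mock array, so a high or low value of a gene on that array enters all 3 differences at once, and its part in these counts was not tested. In size the differences were modest, as 37 of 52 members (71.2%) lay within 1.2-fold of mock on average. So did 66.1% of all genes and 72.0% of those above background on all arrays. The median SD over hairpins was 0.15 on the log2 scale for the members, 0.25 for all genes and 0.22 for genes above background on all arrays.

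**Figure D2:**
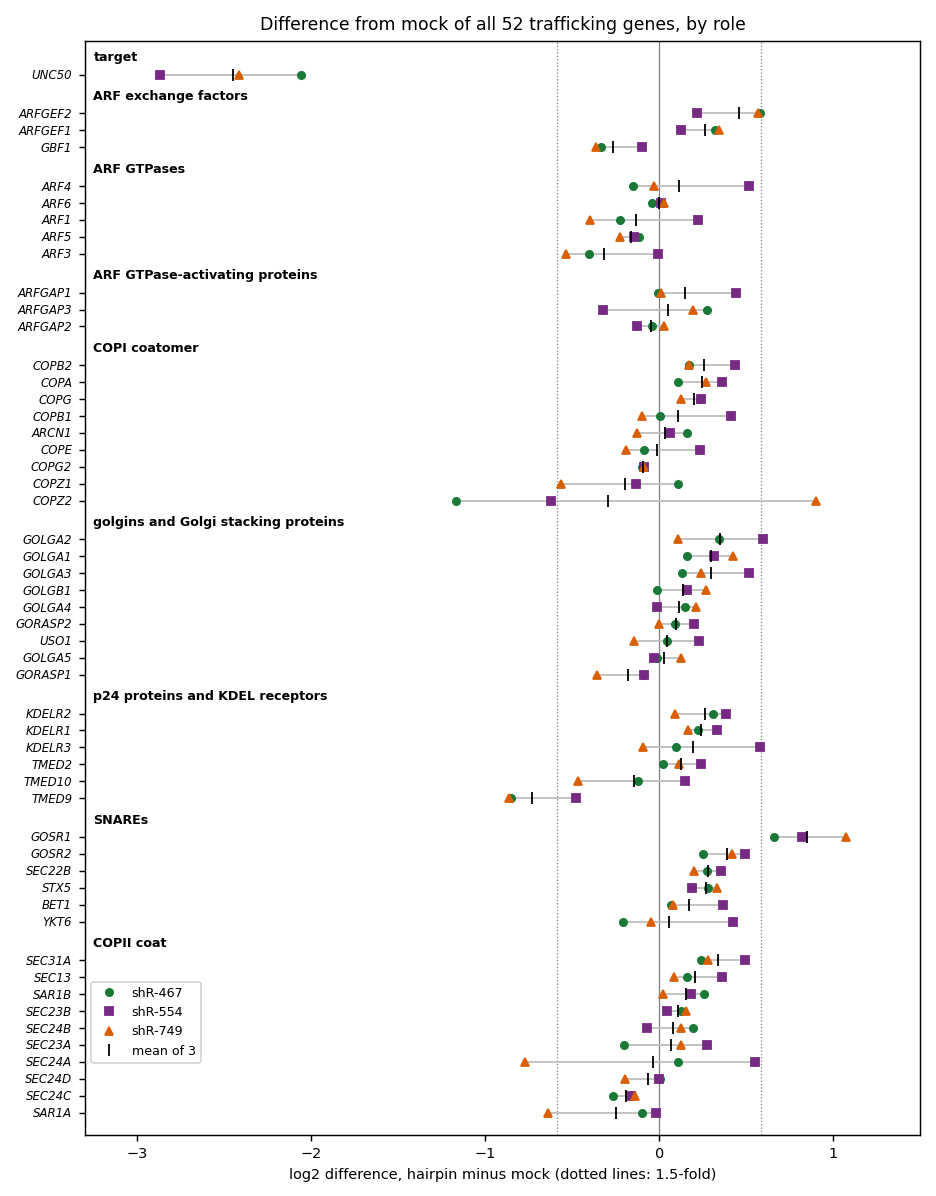
Log2 difference of each of the 52 genes from the mock array with shR-467 (circles), shR-554 (squares) and shR-749 (triangles), grouped by role and ordered by the mean (black ticks). Dotted lines mark 1.5-fold in either direction. UNC50 stands far to the left with all 3 hairpins. GOSR1 is the single gene with all 3 hairpins right of the upper line, and COPZ2 has the widest spread.

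**Figure D3:**
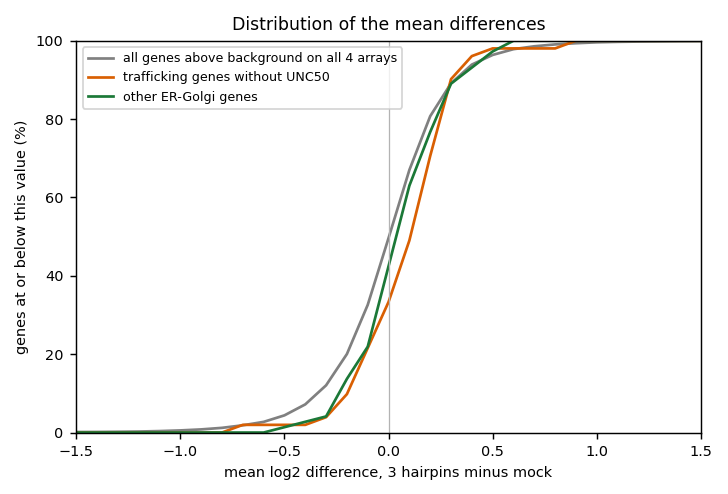
Cumulative share of genes (vertical axis, percent) at or below each mean log2 difference between the 3 hairpins and mock (horizontal axis). The grey line holds the 21497 genes above background on all arrays, the orange line the 51 members other than UNC50 and the green line 73 other genes of ER and Golgi traffic. The orange line runs to the right of the grey one near 0, with medians of 0.11 and 0.00.

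The members past 1.5-fold differed between the hairpins. With shR-467, GOSR1 was at least 1.5-fold higher (7.29% of all genes and 6.25% of those above background on all arrays), and UNC50 and TMED9 were at least 1.5-fold lower (6.77% and 4.32%). With shR-554, GOSR1 and GOLGA2 were higher (4.41% and 4.48%) and UNC50 was lower (16.0% and 8.35%). With shR-749, GOSR1 and COPZ2 were higher (5.4% and 5.3%) and UNC50, TMED9, SEC24A and SAR1A were lower (10.4% and 6.33%). COPZ2 also read more than 1.5-fold below mock with shR-467 and shR-554, where it was not well above background. With its signals raised to the lowest signal detected on each array, these differences were -0.19 and -0.47, short of 1.5-fold.

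Among the 3 ARF exchange factors, GBF1, which acts at the ER-Golgi interface and the cis-Golgi, was below mock with every hairpin, at 79.4%, 93.4% and 77.7% of its level. Its mean log2 difference was -0.27 ± 0.14 (SD, n = 3) with a limma 95% interval of -0.73 to 0.20 (limma adjusted p = 1.0), so it was not separated from 0. The 2 large exchange factors of the trans-Golgi, ARFGEF1 (BIG1) and ARFGEF2 (BIG2), both lay above mock with every hairpin. ARFGEF2 was at 149%, 116% and 148% of mock, a mean of 0.46 ± 0.21 (95% interval -0.13 to 1.04). ARFGEF1 was at 125%, 109% and 127% of mock. The limma 95% intervals of all 3 factors included 0 (-0.27 to 0.80 for ARFGEF1), and the difference between them was not tested.

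Of the 5 ARF GTPases, ARF4 was the one with a mean above 0. It was at 90.2%, 143% and 98.1% of mock, so that its mean of 0.11 ± 0.35 rested on shR-554. ARF3 was lowest, with 75.7%, 99.5% and 69.0% of mock and a mean of -0.31 ± 0.27. ARF1, the main ARF for COPI coat assembly, was above mock with shR-554 (log2 difference 0.23) and below it with shR-467 (-0.22) and shR-749 (-0.40). ARF5 was below mock with every hairpin (-0.12, -0.14 and -0.22), and ARF6, which acts at the plasma membrane, lay between -0.04 and 0.03. With shR-467 all 5 lay below mock, as did 11497 of all 25148 genes. With shR-554, 2 of the 5 lay below it (13796 of all genes), and with shR-749, 4 of the 5 (14368 of all genes). The ARFGAPs, which switch ARF off, stayed near mock on average, from -0.05 ± 0.08 for ARFGAP2 to 0.15 ± 0.25 for ARFGAP1. ARFGAP3 was 80.1% of mock with shR-554 and above mock with the other two.

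The 9 COPI coat genes had a median mean difference of 0.03. COPA, COPB2 and COPG, subunits of the cargo-binding and the adaptor-like parts of the coat, were above mock with every hairpin, and COPB2 was highest at 112%, 135% and 113% of mock (0.26 ± 0.15). COPG2, the second gamma subunit, was below mock with every hairpin by nearly the same amount, at 93.3%, 94.2% and 94.0%. The other 5 genes differed in sign between hairpins. COPZ2, the second zeta subunit, was a dim gene, with processed signals of 33.5 in mock cells and of 14.1, 27.3 and 63.1 in knockdown cells (means of 10 spots). The scanner's mark for a signal well above background was set in mock cells and with shR-749, and not with the other two. Its log2 differences of -1.17, -0.62 and 0.90 thus compare signals at the edge of detection, and its mean of -0.30 ± 1.07 had an SD larger than the mean. With low signals raised to that floor the mean was 0.08, and without shR-749 it was -0.89 on signals as read.

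The golgins and stacking proteins had 8 of 9 means above 0, with a median of 0.12. Means above 0 were found for 45.5% of all genes and for 10824 of the 21497 genes above background on all arrays. GOLGA2 (GM130), a cis-Golgi tether, was highest at 127%, 151% and 108% of mock (0.35 ± 0.24). Its 2 spots differed on an array by an SD of 0.09 to 0.48 on the log2 scale, which reached past its mean difference. GOLGA1 and GOLGA3 were also above mock with every hairpin (means of 0.30 for both), as was GORASP2 (0.10). GORASP1, the stacking protein that anchors GOLGA2, was the exception at 93.9%, 94.0% and 77.9% of mock. Its signals of 42.3 to 62.9 lay near the lower end of the detected range, and the SD of its 2 spots was 0.08 to 0.33. USO1 (p115), which tethers incoming vesicles, was above mock with shR-467 and shR-554 and below it with shR-749.

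The p24 proteins and KDEL receptors select cargo between ER and Golgi, and they held the lowest value after UNC50. The processed signals of TMED9 were 6520 in mock cells and 3160, 5810 and 3610 in knockdown cells. Scaled, these were 55.5%, 71.8% and 54.9% of mock. All 3 knockdown arrays lay below mock, and shR-554 lay nearest to it. The mean log2 difference was -0.73 ± 0.22, or 1.66-fold lower, with a limma 95% interval of -1.26 to -0.20 (rank 133 of 25148 by p, adjusted p = 1.0). The p24 partners of TMED9 did not share its value, since TMED2 was slightly above mock with every hairpin (mean 0.12) and TMED10 was on both sides of it. The KDEL receptors, which return escaped ER proteins, had positive means for all 3 genes. KDELR2 was at 124%, 131% and 106% of mock and KDELR1 at 117%, 126% and 112%, while KDELR3 was 93.7% of mock with shR-749.

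The 6 SNAREs had the highest median of the roles, 0.27 on the log2 scale, just above the 0.26 of the ARF exchange factors. Above mock with every hairpin were 5 of the 6, against 17.5% of all genes and 20.2% of those above background on all arrays. GOSR1 (GOS28), which acts in ER-Golgi and intra-Golgi fusion, had processed signals of 676 in mock cells and 932, 1480 and 1435 in knockdown cells. Scaled, it was at 158%, 176% and 210% of mock. No knockdown array came near the mock value. Its mean log2 difference of 0.85 ± 0.21, or 1.80-fold higher, was the highest among the members and the 199th highest of 25148 genes (95% interval 0.26 to 1.44, rank 110 by limma's p, adjusted p = 1.0). GOSR1 was printed in 2 spots, whose SD on an array was at most 0.07 on the log2 scale. The other SNAREs above mock with every hairpin lay above it by less, with means of 0.39 for GOSR2, 0.28 for SEC22B, 0.27 for STX5 and 0.17 for BET1. YKT6, a lipid-anchored SNARE, was at 86.6%, 134% and 96.7% of mock, and its mean of 0.06 ± 0.33 turned to -0.13 when shR-554 was left out.

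The 10 COPII genes had a median of 0.07. The outer coat genes SEC31A and SEC13 were both above mock with every hairpin, SEC13 by the brighter of its 2 probes. SEC31A was highest at 118%, 141% and 121% of mock (0.34 ± 0.14, 95% interval -0.12 to 0.80), and SEC13 had a mean of 0.20. The second probe of SEC13 was below mock with shR-749 (-0.20). Among the inner coat, SEC23B was above mock with every hairpin by its brighter probe (mean 0.11) but not by its second, which had a mean of 0.01. SEC24C was below mock with every hairpin (mean -0.19). SAR1A, the GTPase that starts the coat, was at 93.5%, 98.7% and 64.3% of mock, and its paralog SAR1B at 119%, 114% and 101%.

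For 9 members a second probe was measured as well, and for some of them the 2 probes differed in sign. Both probes of GOSR2, BET1 and TMED10 gave the same sign with each hairpin. The brighter probe of SAR1A gave log2 differences of -0.10, -0.02 and -0.64 and its dimmer probe 0.20, 0.63 and 0.21, opposite signs with every hairpin. For SEC24A the brighter probe gave 0.11, 0.55 and -0.77 and the dimmer one 0.31, 0.57 and 0.11, so the low value with shR-749 was seen by 1 probe. GOLGB1 (giantin) was higher by its dimmer probe (0.39, 0.51 and 0.50) than by its brighter one (-0.01, 0.16 and 0.27). The second probe of SEC23B gave -0.19, 0.07 and 0.16, where its brighter probe gave 0.12, 0.05 and 0.15. For SEC13 the dimmer probe gave 0.10, 0.39 and -0.20 and the brighter one 0.16, 0.36 and 0.09. The 2 probes of ARCN1, the delta subunit of COPI, disagreed in sign with shR-467 (0.16 and -0.05). The brighter probes of TMED10 and BET1 were placed by the array annotation away from the second probe of the same gene, on another chromosome for TMED10 and on another part of chromosome 7 for BET1, so they may read near-identical copies and the values of these genes are uncertain. UNC50, GBF1, GOSR1 and TMED9 had 1 probe each.

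**Figure D4:**
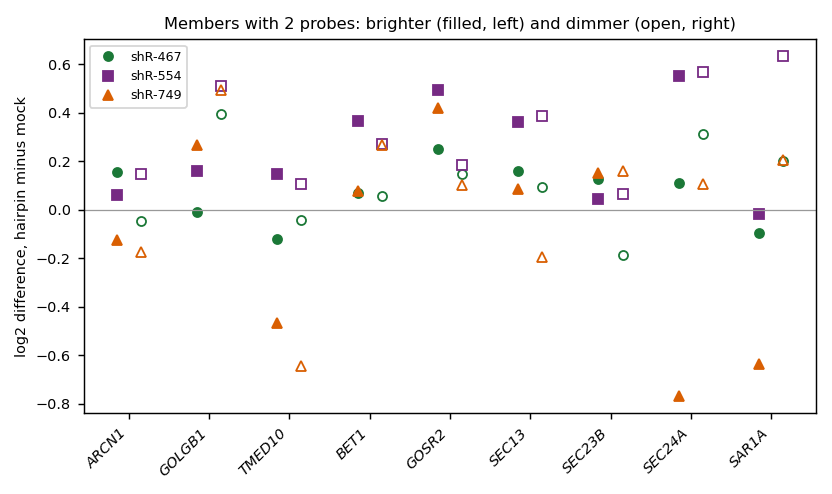
Log2 difference from mock with each hairpin for the 9 members that have 2 probes, with the brighter probe filled on the left and the dimmer probe open on the right. The symbols of SAR1A lie below 0 for the brighter probe and above 0 for the dimmer one, and the triangles of SEC24A (shR-749) lie on opposite sides.

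A further list of 74 genes of ER and Golgi traffic was read the same way, and 73 were on the array. On average, 0 of the 73 were 1.5-fold higher or lower, where 2.28% and 7.69% of all genes were. Among genes above background on all arrays these shares were 2.34% and 2.93%. By any size with all 3 hairpins, 26 were higher (35.6%, all genes 17.5%) and 12 lower (16.4%, all genes 20.6%), and the median was 0.03. For genes above background on all arrays the shares were 20.2% higher and 18.4% lower. With a hairpin left out, many genes of the array reached 1.5-fold on average. Of all 25148 genes, 3711 did so without shR-467, 2356 without shR-554 and 2852 without shR-749. Of the 73 further trafficking genes, 3 did so without shR-467, 3 without shR-554 and 1 without shR-749. The one with an unadjusted limma p under 0.05 was GOLPH3, a Golgi phosphoinositide-binding protein, with log2 differences of 0.72, 0.59 and 0.32 (limma adjusted p = 1.0). The COG complex is a tether for vesicles within the Golgi, and the study names subunits of it beside the yeast homolog of UNC50. COG5 was below mock with shR-467 (-0.39) and shR-749 (-1.24) and at mock with shR-554 (0.02). COG6 and COG8 were above mock with every hairpin, with means of 0.10 ± 0.10 and 0.31 ± 0.12, and COG7 had a mean of -0.00 ± 0.13. The value of COG8 was 0.04 when all its probes were averaged. None of these 4 subunits passed limma.

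The start regions of the members were searched for letters that factors of ER and Golgi stress bind. The search was made after many members had been seen slightly above mock. The shares of genes with these letters come from sequence alone and hold no value from the arrays. Whether a stress response took part in the members' values was not tested. RefSeq promoters (GRCh38.p14, 250 bases before to 50 after a gene's start) were matched for 44 of the 52 genes, COPG through its current symbol COPG1. USO1, TMED9, SEC24D, ARFGAP1, GOLGA4, KDELR2, ARF4 and ARFGEF1 were not matched. The Golgi apparatus stress response element, ACGTGGC on either strand, was present in 18 of 44 member genes (40.9%) and in 758 of 15842 protein-coding genes (4.78%). The ER stress response element, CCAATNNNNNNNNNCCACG on either strand, was present in 0 of 44 and in 21 of 15842 (0.133%). Its last letters can overlap the first element. With a single promoter taken per gene, member promoters had a median GC content of 66.7%, against 62.7% for protein-coding genes. On that count, 4.78% of protein-coding genes at or above 66.7% GC held ACGTGGC. The shares above count a gene if any of its promoters held the letters, so the GC-limited share is not directly comparable.

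In 5 members (11.4%) the whole Golgi element lay in the last 20 bases before the start, against 0.347% of protein-coding genes. The 60 bases before the start of these 5 genes are given to show this placement, 5′ to 3′ on the gene's strand, with the element or its reverse complement in capitals. ARCN1 and COPG1 encode COPI subunits, ARF1 the coat's GTPase, GORASP2 a stacking protein and STX5 a SNARE.
ARCN1, chr11:118572349-118572408, plus strand: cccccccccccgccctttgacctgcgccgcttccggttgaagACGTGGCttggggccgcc
ARF1, chr1:228082648-228082707, plus strand: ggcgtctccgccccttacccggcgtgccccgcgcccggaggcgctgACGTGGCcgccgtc
COPG1, chr3:129249546-129249605, plus strand: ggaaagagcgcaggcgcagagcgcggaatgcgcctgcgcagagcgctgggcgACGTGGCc
GORASP2, chr2:170929193-170929252, plus strand: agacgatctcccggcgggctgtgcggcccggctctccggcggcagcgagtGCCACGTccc
STX5, chr11:62832052-62832111, minus strand: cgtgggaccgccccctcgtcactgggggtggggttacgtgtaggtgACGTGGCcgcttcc
The element began 18, 14, 8, 10 and 14 bases before the start. The mean log2 differences of the 5 genes were 0.03 for ARCN1, -0.13 for ARF1, 0.20 for COPG, 0.10 for GORASP2 and 0.27 for STX5, 4 above 0 and 1 below.

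Members with and without these letters overlapped in their values, and the difference was not tested. The 18 genes with ACGTGGC had a median mean difference of 0.11, from -0.30 to 0.34, and the 25 without it other than UNC50 had 0.08, from -0.31 to 0.85. Of the first, 9 were above mock with every hairpin and 2 below it, and of the second 10 were above and 5 below. Over all genes 17.5% were above and 20.6% below, and over genes above background on all arrays 20.2% and 18.4%. By hairpin, the medians with and without the letters were 0.10 and 0.07, then 0.24 and 0.16, then 0.12 and 0.03. All hairpins are compared with the same mock array, so the shared direction of these medians does not count as independent repeats. GOSR1, the member with the highest value, had none of these letters in its window. A match of letters is a description and not a binding site.

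**Figure D5:**
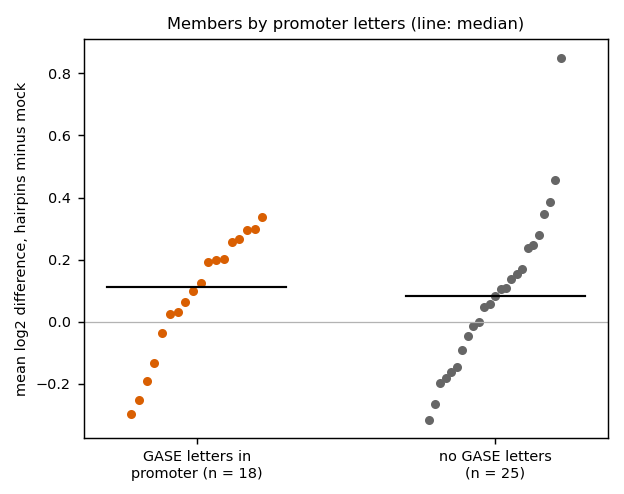
Mean log2 difference between the 3 hairpins and mock (vertical axis) for the 18 members with ACGTGGC in the RefSeq promoter and the 25 without it, UNC50 left out. Each point is a gene, points are spread sideways in order of value, and the line is the median. The medians are 0.11 and 0.08 and the ranges overlap.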

How the data were processed

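For each of the 4 arrays the authors deposited the intensity of every spot from Agilent Feature Extraction 10.7.1.1. The processed signal was taken as the software gave it, with no further background step in the main setting. A table of log2 values that the authors deposited for the same arrays was used as an alternative. Spots that the software marked as outliers were dropped, the log2 processed signals of a probe's spots were averaged, and each array's 75th percentile over non-control spots was subtracted. A probe was kept if well above background in mock cells or with all 3 hairpins. A gene was read from its brightest kept probe. Probe positions come from the array's own annotation (hg19), and RefSeq GRCh38.p14 tables gave names and promoters (51 members matched by symbol and 1 by synonym).

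The mean of 3 hairpins was compared with the 1 mock array. Calls were by fold (1.5-fold on average, or with every hairpin). limma 3.58.1 (R 4.3.3; lmFit and eBayes with trend, Benjamini-Hochberg over 25148 genes) had 2 residual and 4.98 prior degrees of freedom. The number of arrays limits the precision, and p-values measure the spread between hairpins. Slide and scan could not be fitted as blocks, since there was 1 of each. The alternatives were quantile normalization, median scaling, the percentile over detected probes, normexp with an offset of 50, the authors' values, a floor on low signals, other filters, marked spots kept, the mean over probes, a 2-fold threshold, the methods' t-test, limma without trend and each hairpin left out. Python 3.11.15, numpy 2.4.6, pandas 2.3.3 and scipy 1.17.1 were used, and the steps were tested on simulated data.

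The members, roles and lists were chosen with earlier results of these data known. Named genes were UNC50, GBF1, members past a fold or unadjusted p threshold, the highest and lowest mean of each role, further trafficking genes past 1.5-fold with every hairpin, and COG5 to COG8. Other members were named for their level, probe, role or promoter after their values were seen. Of the 74 further trafficking genes, TMED7 was not matched to an array name.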

Additional observations from a re-analysis of the deposited data

Results flagged for a closer look

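The second, dimmer probe of SAR1A was not used in the comparisons. With shR-554 it read 0.63 above mock on the log2 scale, at least 1.5-fold, whereas the probe that represents the gene read -0.02 on the same arrays. Neither probe was dim on any of the 4 arrays.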

How the results depend on the processing

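Of 387 values computed under the alternatives, 373 were labelled the same, 14 moved and 0 reversed. Counts were the same within a factor of 1.5, and medians and gene means within their SD over hairpins. UNC50 was the same if it kept its sign and its side of the adjusted p threshold. Other genes were labelled reversed only if past a fold call, so sign changes of uncalled genes count as the same or moved. The UNC50 difference ranged from -2.64 to -2.24 and its adjusted limma p from 0.0512 to 1.0, with no member past an adjusted p of 0.05 under any alternative. GOSR1 ranged from 0.74 to 0.95 and TMED9 from -0.86 to -0.66, and both kept a mean of 1.5-fold or more under every alternative but the 2-fold threshold. At 2-fold, 1 member (UNC50) was called on average and 1 with every hairpin. Without shR-554, TMED9 was also called with every hairpin, and without shR-749, COPZ2 was called on average and with every hairpin, on signals not well above background. For the further trafficking genes, the count at 1.5-fold on average was 0, and it ranged from 1 to 3 when a hairpin was left out (COG5, SEC31B and SMAP1 without shR-467, COG5, MCFD2 and SMAP1 without shR-554, GOLPH3 without shR-749). Over all genes the counts with the same hairpins left out were 3711, 2356 and 2852. COG8 fell to 0.04 when its probes were averaged. The means of ARF4, ARFGAP1, YKT6, SAR1A, COPZ2 and COG7 changed sign under at least 1 alternative. The unadjusted p under 0.05 was met by UNC50 and GOSR1 in limma without the trend and by UNC50 and COPG2 in the methods' t-test, 2 members each. That t-test gave 646 genes at an unadjusted p under 0.05 and 0 after Benjamini-Hochberg adjustment. Over all genes, 2509 differed by 1.5-fold on average, 535 with normexp, 1531 with low signals raised to the floor, 5361 without a filter, 686 at 2-fold and 1132 when every array had to be above background. Adjusted limma calls over all genes were 4 with normexp, 2 without shR-554 and 1 without shR-749. The cause of these shifts was not tested. No paired analysis was possible because there was 1 mock array. Dim genes such as COPZ2 are limited by their signal over background.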
